A study of Nothobranchius furzeri with 16 samples.

Results

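Oxidative phosphorylation subunits were taken from a table of ribosome footprints of killifish brain, as the gene symbols that start with NDUF, UQCR, ATP5 or COX and a digit, or that read SDHA to SDHD. The rule found 79 of 28494 symbols, and counted each copy of a duplicated gene, written as (1of2) and the like, as a member. By name, 28 members belonged to complex I, 3 to complex II, 6 to complex III, 14 to complex IV and 12 to ATP synthase, and 16 were assembly or related factors. Whole brains of male Nothobranchius furzeri, the short-lived turquoise killifish, of strain MZM-04/10p were compared at 26 weeks (old) and at 6 weeks (young). Each age had 4 footprint libraries and 4 other libraries of RNA sequencing, 16 in all, and the labels name no transgene and no treatment. For the old RNA libraries the sample titles give 22 where the age field gives 26 weeks, and grouping followed the age field. The labels tie no library to a fish, although the study's text counts as many brains per age as there are footprint libraries, and p-values cover the variation among these libraries, which may in part be technical.

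Oxidative phosphorylation takes place at the inner mitochondrial membrane. Complex I accepts electrons from NADH and complex II from succinate, complex III passes them by way of cytochrome c to complex IV, which reduces oxygen, and ATP synthase uses the resulting proton gradient to make ATP. Most of the subunits are encoded in the nucleus, translated by cytosolic ribosomes and imported, and join subunits made inside the mitochondrion. Neurons depend heavily on this pathway to restore ion gradients after firing, and partner subunits are needed in fixed proportions.

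A footprint is a fragment of RNA protected by a translating ribosome, so that footprints report on translation. The libraries were made without depletion of ribosomal RNA, and few reads fell on messenger RNA. The deposited values are fragments per kilobase of gene and 1000000 mapped fragments (FPKM), from which whole reads were recovered for 49 of the 50 members above 0. Over all genes, old libraries held 4156, 3126, 3598 and 1874 recovered reads, against 2159, 998, 872 and 329 in young libraries, so that 74.5% of all recovered reads came from old brain. The same read has a different FPKM in each library. For ATP5A1(1of2), 4 reads amounted to 17.8 FPKM in old replicate 4, and 1 read to 134 FPKM in young replicate 4. Old replicate 4 stood apart, with 0.124 times the recovered reads per mapped fragment of old replicate 2, against 0.657 to 1.23 times in the other 6.

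Markers of brain cells were found at both ages. The neuron list took 0.721% of recovered reads in old and 0.895% in young libraries, with 15 of its 20 symbols above 0, and all 16 photoreceptor and retina symbols were at 0. The astroglia list took 0.674% in old libraries (0.361% to 0.992%) and 0.413% in young ones (0 to 0.917%), with 4 of 10 symbols above 0. Of these, GFAP, the intermediate filament of astroglia, had 15 reads in old and 1 in young brain, and the glutamate transporter SLC1A2B had 32 in old and 4 in young brain. S100B(2of2) had 36 reads in old and 11 in young brain, and FABP7A had 3 in old and 2 in young brain. Over all genes, old libraries held 12754 recovered reads and young libraries 4358. The oligodendrocyte list took 0.431% in old libraries (0.213% to 0.640%) and 0.665% in young ones (0.501% to 1.82%), with 6 of 15 symbols above 0, of which PLP1B gave no whole reads and is missing from the share. The skeletal muscle list took 0.204% in old libraries (0.139% to 0.313%) and 0.620% in young ones (0 to 0.917%), with 23 of its 66 symbols above 0. The list is built on symbol prefixes and also holds non-muscle myosins such as MYH9(4of4). COX6A2 and COX7A1, the heart and muscle forms of complex IV subunits in mammals, were at 0 in all 8 footprint libraries. The part of muscle, astroglial and oligodendrocyte transcripts in the results below was not tested. In whole tissue, fewer cells of a type and less RNA per cell cannot be told apart.

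The first comparison asked how many footprints the members carried in old and young brain. Of the 79 members, 50 were above 0 in at least 1 library and 29 were at 0 in all 8. Old libraries held 124 recovered member reads (33, 31, 32 and 28), against 32 in young libraries (13, 10, 8 and 1). Set against the depth, this was 0.972% of recovered reads in old brain (exact Clopper-Pearson 95% interval 0.809 to 1.16) and 0.734% in young brain (0.503 to 1.04). The intervals overlap, and they cover counting error only, since reads without molecular identifiers are not independent molecules. Averaged over libraries, the share was 1.04% ± 0.312 in old and 0.706% ± 0.319 in young brain (SD, n = 4 each). Single libraries overlapped, at 0.794%, 0.992%, 0.889% and 1.49% in old and 0.602%, 1.002%, 0.917% and 0.304% in young brain. The highest and the lowest of the 8 shares belonged to old and young replicate 4, and without that pair the means were 0.892% in old and 0.841% in young brain.

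**Figure D1:**
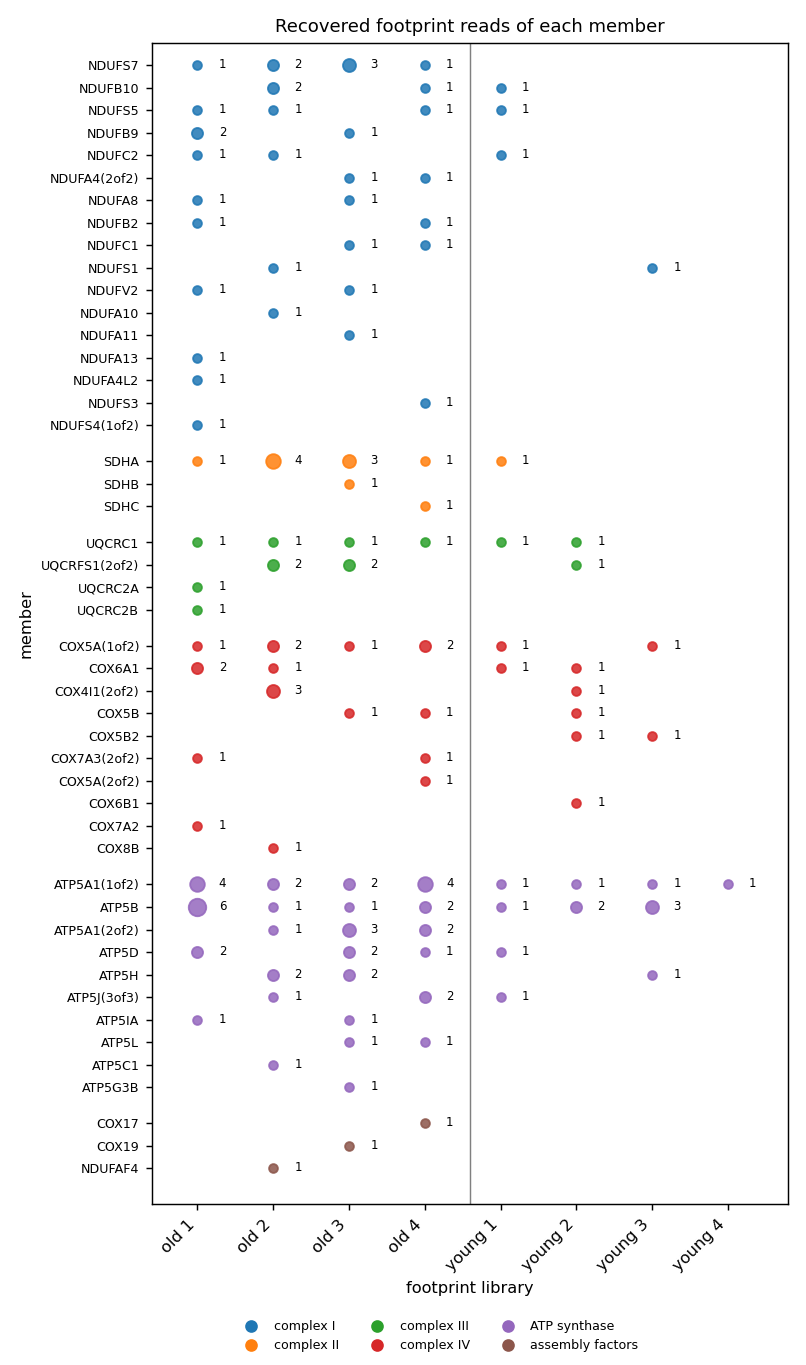
Recovered footprint reads of 47 members with whole reads (rows, grouped by complex) in each library (columns, old left and young right). The area of a point grows with the number of reads, which is printed beside it. ATP5A1(1of2) is the only member with a read in every library, and young replicate 4 holds 1 member read in all.

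More members were seen in old than in young brain, as were more genes of every kind. There were 46 members above 0 in old and 21 in young libraries, with 29 seen in old brain alone, 4 in young brain alone and 17 in both. Among the 46 members with a mean of at least 1 TPM (FPKM rescaled to sum to 1000000 per library), 25 were at 0 in every young library. Over all 5200 genes above that level it was 54.9%, so that the members, at 54.3%, were near the background. In 38 of the 46 members more old than young libraries were above 0, with a background of 69.5%, and in 4 fewer were, with a background of 17.6%. A further 4 of 46 were at 0 in every old library (background 15.2%), and 17 of 46 were above 0 in a single library (background 52.3%). The members took 0.883%, 1.004%, 0.926% and 1.52% of the genes detected in the old libraries, and 0.872%, 1.26%, 0.888% and 0.382% in the young ones.

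The shares were then divided by respiratory complex. Complex I took 0.265%, 0.256%, 0.2501% and 0.374% of recovered reads in the old libraries, against 0.232%, 0, 0.115% and 0 in the young ones. The old values lay above all young values, and the means were 0.286% ± 0.0586 in old and 0.0866% ± 0.111 in young brain (SD, n = 4 each). How often summed shares of other gene sets of this size separate in this way was not computed. The ratio of the means was 3.30 with all libraries. With 1 library left out it ranged from 2.48, without young replicate 2 or 4, to 7.48, without young replicate 1. Without replicate 4 of both ages it was 2.23. NDUFA4 stands with complex I by its prefix, though in mammals it is counted with complex IV. With NDUFA4 moved to complex IV, an alternative chosen after seeing the data, old replicate 3 had 0.222%, below the 0.232% of young replicate 1, and the ages overlapped. Pooled over libraries, 35 reads in old brain gave 0.274% (exact interval 0.191 to 0.381), and 6 reads in young brain gave 0.138% (0.0505 to 0.299). A count of 0 in young replicates 2 and 4 allows shares of up to 0.301% and 0.912% (3 reads of the total). NDUFV1, whose values gave no whole reads, is missing from these shares and was above 0 in young replicate 2. As a share of TPM with the 3 most abundant symbols left out, NDUFV1 included, the ages overlapped, with 0.504%, 0.601%, 0.507% and 0.809% in old and 0.824%, 0.0587%, 0.0582% and 0 in young libraries.

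Complex II took 0.0241%, 0.128%, 0.111% and 0.107% in old libraries, against 0.0463% in young replicate 1 and 0 in the other young libraries. These are 11 reads in old and 1 read in young brain. Complex III had a pooled share of 0.0784% in old (10 reads) and 0.0688% in young brain (3 reads). The young reads lay in replicates 1 and 2, and the ratio of the mean shares, 1.24 with all libraries, was 4.94 without young replicate 2 and 0.927 without young replicate 3 or 4. Complex IV alone among the complexes had a lower pooled share in old brain, at 0.149% (19 reads, exact interval 0.0897 to 0.233), against 0.207% in young brain (9 reads, 0.0945 to 0.392), and these intervals overlap. As a share of TPM with the 3 most abundant symbols left out, the order of the complex IV means turned round, with 0.502% in old and 0.408% in young brain, as it did in recovered reads without young replicate 2, with 0.167% in old and 0.107% in young brain. ATP synthase took the largest pooled share of recovered reads of any complex at both ages. It had 0.361% in old (46 reads, exact interval 0.264 to 0.481) and 0.298% in young brain (13 reads, 0.159 to 0.510). Reads are not corrected for gene length. By share of TPM with the 3 most abundant symbols left out, ATP synthase led at neither age, with means of 0.484% in old and 0.347% in young brain. Complex IV had the 0.502% and 0.408% given above, and complex I had 0.605% in old and 0.235% in young brain. In recovered reads, the mean share of ATP synthase was 0.393% in old and 0.341% in young brain. This order turned round without old replicate 4 (0.310% in old and 0.341% in young brain) and without replicate 4 of both ages (0.310% in old and 0.353% in young brain). Assembly factors held 3 reads in old brain and 0 reads in young brain, which allows up to 0.0688%. At this depth the pooled intervals of every complex overlapped between the ages.

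**Figure D2:**
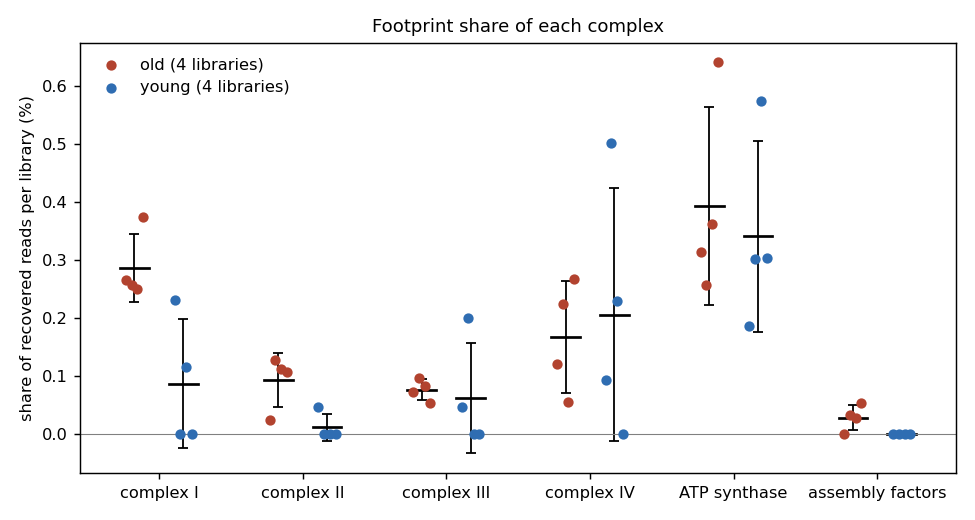
Share of recovered footprint reads (percent, vertical axis) taken by each complex and by assembly factors, in 4 old (red, left) and 4 young (blue, right) libraries. Points are libraries, the short line is their mean and the bar is 1 SD. The old complex I points, from 0.2501% to 0.374%, sit above the young ones, which reach 0.232%, and the ages overlap in every other complex. The list of mitochondrial carriers and creatine kinases, which is not drawn, did not overlap either. In that list CKBB alone held 51 of 95 old and 13 of 24 young reads. With NDUFA4 moved to complex IV, old replicate 3 falls to 0.222% and the ages overlap in complex I too.

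No member passed the test of footprint level between the ages. With limma on log2(TPM + 1), adjusted over all 5200 genes, 0 of the 46 tested members and 0 of all genes (0%) had an adjusted p under 0.05, and the smallest adjusted p was 0.510. At an unadjusted p under 0.05 there were 2 members, NDUFS7 and ATP5A1(2of2), both higher in old brain, and 86 of all genes (1.65%). On recovered reads of genes with at least 10 reads, edgeR called 1 of 248 genes and 0 of the 3 members tested, ATP5A1(1of2), ATP5B and SDHA. The median difference was 1.22 on the log2(TPM + 1) scale over the 46 members and 0.95 over all tested genes, with 38 members above 0 and 8 below. Among 1695 other genes of similar mean level, from the lower to the upper quartile of the members, the median was 1.26. With a higher minimum of 10 TPM, the median was 1.52 over 19 members and 0.28 over 909 genes. Of these genes 54.2% had a positive difference, against 71.6% at the minimum of 1 TPM. The minimum applies to the mean over both ages. In FPKM, 1 read was worth up to 6.24 times its worth in old replicate 2 in a young library, and up to 1.07 times in an old one. In TPM, the scale of the minimum, the gap was wider. For ATP5A1(1of2), 1 read was 224 TPM in young replicate 4, and 2 reads were 24.4 TPM in old replicate 2. No genes of similar level were compared at 10 TPM, and the part of the filter in this gap was not tested. The old libraries held more recovered reads than the young ones of the same number, and the part of depth in these differences was not tested.

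**Figure D3:**
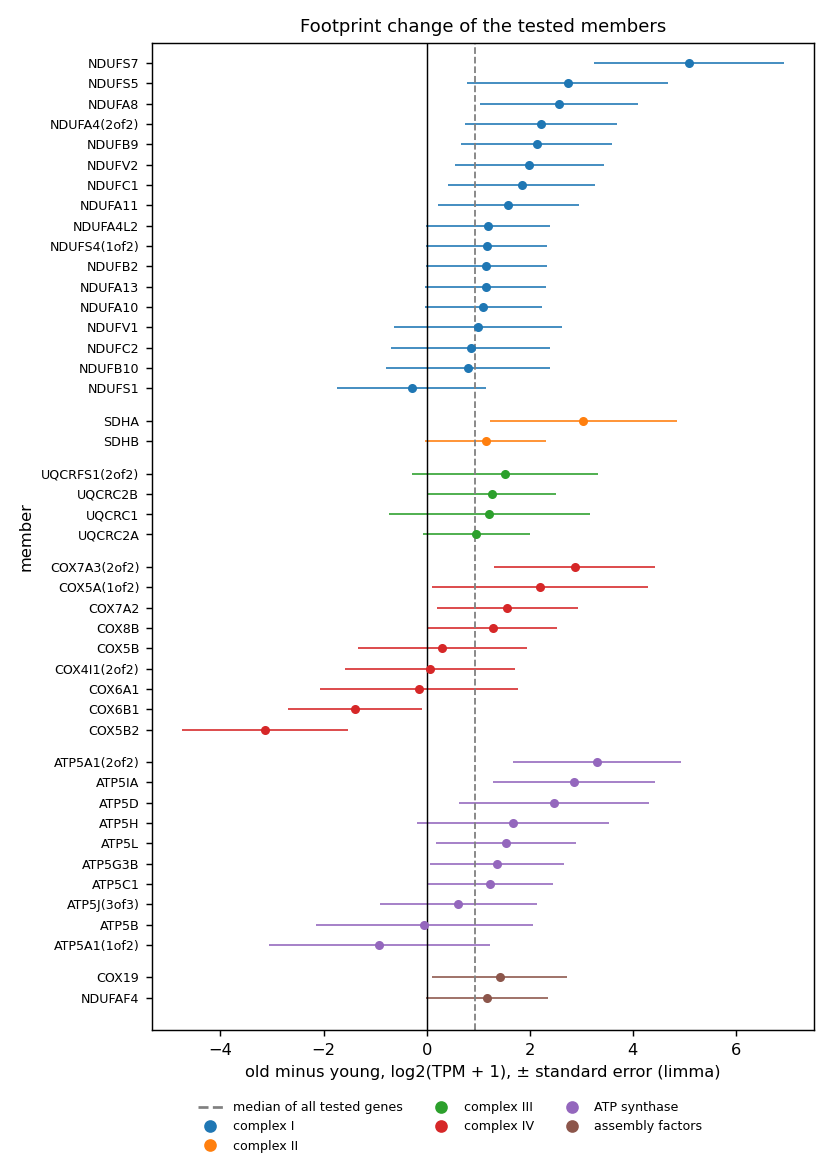
Difference in footprint level between old and young brain for 44 of the tested members (limma, log2(TPM + 1) scale, bars are standard errors), grouped by complex. The dashed line marks the median of all 5200 tested genes at 0.95, and most members lie within 1 standard error of it.

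Within complex I, NDUFS7 carried the most reads. It encodes the core subunit that holds the last iron-sulphur cluster before ubiquinone. Its reads numbered 1, 2, 3 and 1 in old brain, equal to 39.5, 126, 202 and 13.0 FPKM, against 0 throughout young brain. NDUFS7 was the only tested member whose old values all lay above the young ones, 1 of 46 (2.17%) where 1.0% of all tested genes did so. No tested member lay the other way, with a background of 0.0385%. The difference was 5.10 ± 1.85 on the log2(TPM + 1) scale (standard error, limma adjusted p = 0.510). Its share was 0.0549% in old brain, and the 0 reads of young brain allow 0.0688%, so that a higher old share was not detectable at this depth. NDUFS7 and ATP5A1(2of2) were the 2 members seen in at least 3 old libraries and no young one, 2 of 46 (4.35%) where 4.31% of all tested genes were.

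Other core subunits of complex I were close to the limit of detection. NDUFV1, the NADH-binding flavoprotein, stood at 11.7 and 84.95 FPKM in old replicates 1 and 2 and at 44.5 FPKM in young replicate 2. NDUFS1, NDUFS3 and NDUFV2, further core subunits of the NADH arm and its connection, had 2 reads or fewer each. Among the accessory subunits, NDUFS5 had 1, 1, 0 and 1 reads in old brain and 1, 0, 0 and 0 in young brain, a difference of 2.74 ± 1.95 (limma adjusted p = 0.510). NDUFA8 had 1 read in each of old replicates 1 and 3 and none in young brain. In all, 8 of 28 complex I members were at 0 throughout, among them NDUFAB1, the mitochondrial acyl carrier protein, and NDUFS8A, a core iron-sulphur subunit.

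In complex II, nearly all reads fell on SDHA, the flavoprotein that oxidises succinate and also serves in the tricarboxylic acid cycle. SDHA had 1, 4, 3 and 1 reads in old brain and 1, 0, 0 and 0 in young brain, or 13.6, 86.8, 69.6 and 4.48 FPKM in old and 22.8, 0, 0 and 0 FPKM in young brain. Its pooled share was 0.0706% in old (exact interval 0.0323 to 0.134) and 0.0229% in young brain (0.000581 to 0.128), which overlap. The difference was 3.04 ± 1.82 on the log2(TPM + 1) scale (limma adjusted p = 0.510) and 1.92 ± 1.16 on the log2 scale of recovered reads (edgeR adjusted p = 0.461). SDHB, the iron-sulphur subunit, and SDHC, a membrane anchor, had 1 read each, both in old brain.

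In complex III, UQCRC1, a core protein of the matrix side, had 1 read in each old library and in young replicates 1 and 2. In FPKM this was 22.04, 35.2, 37.6 and 7.26 in old brain and 37.0, 83.9, 0 and 0 in young brain. UQCRFS1(2of2), a copy of the Rieske iron-sulphur protein, had 0, 2, 2 and 0 reads in old brain and 0, 1, 0 and 0 in young brain. The ages overlapped for both. UQCRC2A and UQCRC2B, copies of the other core protein, had 1 read each, in old replicate 1, while UQCRFS1(1of2) and the small subunit UQCR10 were at 0 throughout.

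In complex IV, the members are small nuclear-encoded subunits around the catalytic core that mitochondria make themselves. COX5A(1of2), a subunit of the matrix side, led with 1, 2, 1 and 2 reads in old brain and 1, 0, 1 and 0 in young brain. In FPKM it stood at 48.6, 155, 82.9 and 32 in old brain and at 81.5, 0, 186 and 0 in young brain, with a share of 0.0470% in old and 0.0459% in young brain. COX6A1 had 2, 1, 0 and 0 reads in old and 1, 1, 0 and 0 in young libraries. COX5B2 was seen only in young replicates 2 and 3, with 1 read each, a difference of -3.14 ± 1.61 (limma adjusted p = 0.510), and COX6B1 only in young replicate 2. COX7A3(2of2) and COX7A2 were seen only in old brain, with 2 reads and 1 read. So the members of complex IV lay on both sides of the median, and their differences ranged from -3.14 to 2.87.

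In ATP synthase, most reads fell on the alpha and beta subunits of the catalytic head, in counts that are not corrected for gene length. In FPKM, ATP5H of the peripheral stalk reached 219 in old and 245 in young brain, each from 1 or 2 reads. The beta subunit ATP5B reached 111 in old and 212 in young brain. ATP5A1(1of2), a copy of the alpha subunit, had 4, 2, 2 and 4 reads in old libraries and 1 read in each young library. Its share was 0.0941% in old brain (exact interval 0.0486 to 0.164) and 0.0918% in young brain (0.0250 to 0.235). The FPKM of this copy averaged 40.2 ± 15.6 in old and 64.9 ± 48.2 in young brain (SD, n = 4 each), since 134 FPKM came from the 1 read of young replicate 4. The difference was -0.92 ± 2.14 on the log2(TPM + 1) scale (limma adjusted p = 0.788) and 0.61 ± 0.93 on recovered reads (edgeR adjusted p = 0.916), so its sign turned with the scale. ATP5A1(2of2) had 0, 1, 3 and 2 reads in old brain and 0 in young brain, a difference of 3.31 ± 1.63 (limma adjusted p = 0.510). Reads can be shared between the 2 copies, and the alpha subunit as a whole held 18 reads in old and 4 in young brain.

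ATP5B, the beta subunit that carries the catalytic sites, had 6, 1, 1 and 2 reads in old brain and 1, 2, 3 and 0 in young brain. In FPKM this was 111, 29.5, 31.5 and 12.2 in old brain and 31.0, 141, 212 and 0 in young brain. The old share, 0.0784%, was 0.569 times the young share of 0.138%, with overlapping exact intervals (0.0376 to 0.144 in old, 0.0505 to 0.299 in young brain). Among the other ATP synthase members, ATP5D of the central stalk had 2, 0, 2 and 1 reads in old and 1, 0, 0 and 0 in young libraries. ATP5H of the peripheral stalk had 0, 2, 2 and 0 reads in old and 0, 0, 1 and 0 in young libraries. ATP5IA, a membrane subunit, had 1 read in each of old replicates 1 and 3. The ages overlapped in each of these.

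Assembly factors were the least detected class. Only 3 of 16 were above 0, each with 1 read in old brain: NDUFAF4, a complex I assembly factor, COX17, the copper chaperone of complex IV, and COX19, another complex IV assembly factor. The 4 members above 0 that fell short of a mean of 1 TPM were COX17, COX5A(2of2), NDUFS3 and SDHC, each with 1 read, in old replicate 4.

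Other genes of energy metabolism and of mitochondria were read off the same fit. Their lists were tricarboxylic acid cycle enzymes, electron carriers, mitochondrial carriers and creatine kinases, glycolysis, the mitochondrial ribosome and protein import. None of the 67 tested members of these 7 lists was called by limma in either direction, 0 as in the table as a whole. Glycolysis took 1.004% of recovered reads in old (128 reads, libraries from 0.794% to 1.39%) and 1.31% in young brain (57 reads, 1.03% to 1.82%). The tricarboxylic acid cycle took 0.172% in old (22 reads, 0.0534% to 0.306%) and 0.275% in young brain (12 reads, 0.115% to 0.608%). Single libraries of the ages overlapped in both lists. Mitochondrial carriers and creatine kinases took 0.745% in old and 0.551% in young brain, and all 11 of their tested members had a positive difference, as did 71.6% of all tested genes. In single libraries this list stood at 0.694% to 0.778% in old and 0 to 0.648% in young brain. Its old values thus lay above all young ones, as those of complex I did. CKBB, a brain creatine kinase, held 51 of the 95 reads of this list in old and 13 of the 24 in young brain. It had 20, 12, 12 and 7 reads in old and 8, 2, 3 and 0 in young libraries. The share of the list was not recomputed without CKBB. SLC25A5(2of2), an ADP and ATP carrier of the inner membrane, had 5, 2, 4 and 1 reads in old and 2, 2, 1 and 0 in young libraries. Among glycolytic enzymes, TPI1(1of2), triose phosphate isomerase, was the only one seen in all 8 libraries, with 7 reads in old and 4 in young brain. CYC1, the cytochrome c1 subunit of complex III whose symbol falls outside the rule, had 0, 1, 3 and 0 reads in old brain and 0 in young brain.

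The second comparison asked whether the transcripts of the members differed in level between the ages. RNA libraries were far deeper, with 9461792 to 13771769 counts each. The RNA table names genes by identifiers only, and 30 identifiers could be named as members from the study's supplementary tables, by their fish symbol or human orthologue. They comprised 9 of ATP synthase, 6 each of complexes I and IV, 3 of complex III, 1 of complex II and 5 assembly factors. Those tables are ranked excerpts from other fish, so the 30 are not a random sample of the pathway, and the levels below are from other libraries than the footprints. Duplicated names such as ATP5A1, ATP5G3 and ATP5J stand for separate identifiers.

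Replicate 1 of both ages stood apart from the other RNA libraries in these identifiers. The summed level of the 30 identifiers was 2332, 5773, 6163 and 5798 counts per 1000000 (CPM, TMM-normalised) in the old libraries and 2634, 7707, 6412 and 6907 in the young ones. Replicate 1 was the lowest old library for 28 of the 30 identifiers and the lowest young library for 29. The log2 ratio of replicate 1 to the mean of replicates 2 to 4 had a median over the identifiers of -1.42 in old and -1.55 in young brain, where the medians over all tested genes were -0.00 and -0.06. Normalisation itself keeps such all-gene medians small. Over all tested genes, deviations of old replicate 1 from its age mean correlated at 0.800 with those of young replicate 1. With young replicates 2 to 4 the correlations were -0.715 to -0.589. Deviations from an age mean cancel out within that age, so these negative values follow in part from the 0.800 and add no separate support. The 0.800 was taken over all tested genes, so replicate 1 stood apart beyond these identifiers too. The labels name no batch, and each age has 1 such library, so that it allows no test by itself. Counts of calls on RNA are therefore given with and without replicate 1. This split was chosen after seeing the data, in which these same identifiers set replicate 1 apart.

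**Figure D4:**
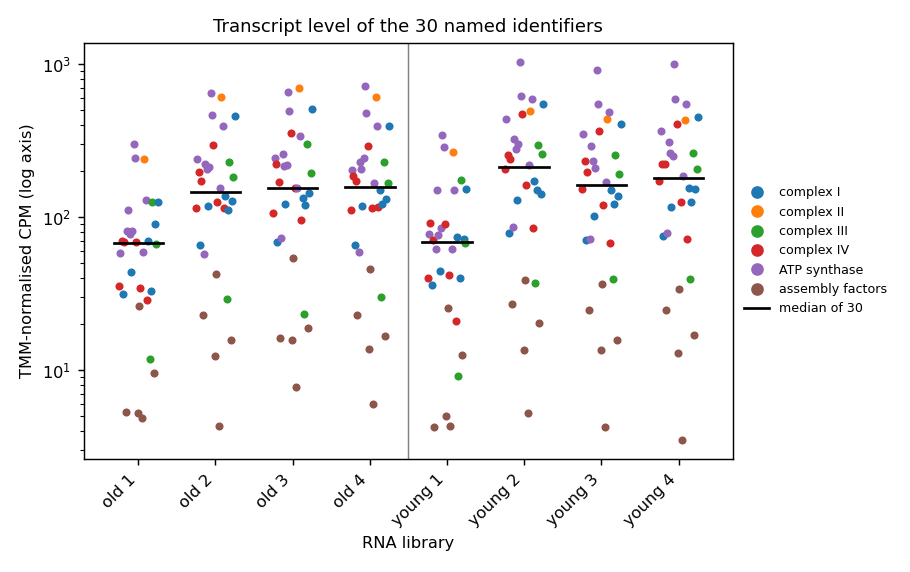
Transcript level of the 30 named identifiers (points, coloured by complex, log axis in TMM-normalised counts per 1000000) in each RNA library, old left and young right. Black lines are the medians of the 30, which lie at 68.1 in old replicate 1 and 69.0 in young replicate 1, and between 147 and 212 in the other 6 libraries.

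With all 8 libraries, no identifier was called. The edgeR quasi-likelihood test gave 0 of 30 members at an adjusted p under 0.05, against 0.310% of all 16759 tested genes (0.155% higher and 0.155% lower in old brain). At an unadjusted p under 0.05 there were also 0 members, where 14.7% of all genes passed, and DESeq2 called 0. The smallest adjusted p among the members was 0.540. The ages overlapped for all 30 identifiers, whereas 9.89% of all tested genes did not overlap. Replicate 1 was the lowest library of both ages for 28 of the 30. With such a low library in each age the ages can hardly separate, so this overlap cannot decide on a change with age. The log2 fold change was below 0 in 24 of the 30, with a median of -0.18 beside 0.04 over all tested genes. Upper quartile normalization moved the median of all genes by more than 0.1, to -0.07, and that of the members to -0.32, and split the calls over all genes into 15 higher and 34 lower, against 26 each with TMM.

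Within replicates 2 to 4, many members of ATP synthase and complex IV were lower in old brain. Over these 6 libraries, which were normalised anew, edgeR called 17 of 30 identifiers lower and 2 higher, where 15.9% of 16614 genes were called lower and 16.0% higher (31.9% in all). This background holds tested genes of every level, and none of similar level was computed for RNA. At an unadjusted p under 0.05 it was 23 of 30, with a background of 44.1%. The median log2 fold change was -0.30 over the identifiers and -0.00 over all tested genes. Of the 19 calls, 11 held in each of the 6 fits that left out a further library. The count of called identifiers fell to 12 without young replicate 4, where 12.7% of all genes were called. It was 14 to 18 in the other 5 fits, where 15.4% to 30.3% of all genes were called. These values rest on 3 libraries per age and on a split chosen after seeing the data. Leaving out only 1 of the replicate 1 libraries gave 0 calls among the members, for the old as for the young one.

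For ATP synthase, 8 of 9 identifiers were lower in old brain within replicates 2 to 4, 0 were higher and 1 was not called. The largest drop was that of ATP5G3 (Nfu_g_1_002074), a gene of the membrane ring of c subunits. It had 58.1, 240.4, 244 and 201 CPM in old and 78.0, 438, 346 and 366 CPM in young brain. In replicates 2 to 4 all old values lay below the young ones, as they did for 3273 of all 16759 tested genes. The log2 fold change in replicates 2 to 4 was -0.84 ± 0.10 (standard error, edgeR adjusted p = 0.000668), against -0.72 ± 0.57 over all 8 libraries (edgeR adjusted p = 0.611). A second ATP5G3 (Nfu_g_1_017674) had 129, 393, 336 and 392 CPM in old and 149.8, 594, 488 and 549.6 CPM in young brain (replicates 2 to 4: -0.63 ± 0.11, edgeR adjusted p = 0.00297). Per kilobase it had the highest level of the 30 identifiers at both ages, with 744 CPM in old and 1060.5 CPM in young brain.

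The catalytic subunits were also called lower within replicates 2 to 4. ATP5B (Nfu_g_1_008681) had 300.4, 645, 659 and 711 CPM in old and 341, 1034, 915 and 994 CPM in young brain. Within replicates 2 to 4 the log2 fold change was -0.64 ± 0.09 (edgeR adjusted p = 0.00108), and replicate 1 differed in the same direction, by less. The identifiers named ATP5A1 had -0.48 ± 0.08 (Nfu_g_1_006324, edgeR adjusted p = 0.00222) and -0.39 ± 0.08 (Nfu_g_1_009250, edgeR adjusted p = 0.00527). The stalk subunits ATP5H and ATP5D had -0.40 ± 0.08 and -0.36 ± 0.10 (edgeR adjusted p = 0.00673 and 0.0186). Of 2 identifiers named ATP5J, a subunit of the peripheral stalk, Nfu_g_1_005965 was called (-0.42 ± 0.09, edgeR adjusted p = 0.00898) and Nfu_g_1_008671 was not (-0.26 ± 0.11, edgeR adjusted p = 0.108).

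In complex IV, 4 of 6 identifiers were lower and 1 was higher in old brain within replicates 2 to 4. COX7A2 (Nfu_g_1_000112) had 35.7, 114, 106 and 112 CPM in old and 40.0, 206, 152 and 173 CPM in young brain, and its fold change within replicates 2 to 4 was -0.76 ± 0.11 (log2, edgeR adjusted p = 0.00121). COX6A1, COX7B2 and COX5A had -0.50, -0.45 and -0.33 (edgeR adjusted p = 0.00428, 0.00502 and 0.0132). COX6B2 (Nfu_g_1_018035), whose human orthologue is given as COX6B1, went the other way. It had 28.6, 115, 95.6 and 117 CPM in old and 20.9, 85.2, 68.2 and 71.7 CPM in young brain, and was higher in old brain by 0.45 ± 0.12 (edgeR adjusted p = 0.0171). This call held in 3 of the 6 fits without a further library. COX5B was not called (-0.15 ± 0.12, edgeR adjusted p = 0.351).

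SDHA (Nfu_g_1_016728), the only complex II identifier, was called higher in old brain within replicates 2 to 4. It had 238, 604, 697 and 607 CPM in old and 267, 489, 434 and 427 CPM in young brain. Within replicates 2 to 4 all old values lay above the young ones, as they did for 4702 of all 16759 tested genes. The log2 fold change there was 0.40 ± 0.08 (edgeR adjusted p = 0.00544), and the call held in all 6 fits without a further library. In replicate 1 the old value was the lower one. Over all 8 libraries the log2 fold change was 0.41 ± 0.35 (edgeR adjusted p = 0.655). Among footprints, SDHA had the 9 reads in old and 1 read in young brain given above. Set against the depth, the intervals of its footprint share overlapped between the ages, and its footprints were not called.

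In complex III, UQCRFS1 and UQCRH, the hinge protein, were lower within replicates 2 to 4 (-0.58 ± 0.14 and -0.36 ± 0.10, edgeR adjusted p = 0.0118 and 0.0235), where the call of UQCRH held in 3 of the 6 fits without a further library, and UQCRC1 was not called (-0.20 ± 0.09, edgeR adjusted p = 0.124). In complex I, 3 of 6 identifiers were called lower, NDUFS8B, NDUFAB1B and NDUFA13, at log2 ratios near each other, -0.27, -0.27 and -0.26 (edgeR adjusted p = 0.0302, 0.0405 and 0.0429). These 3 calls were lost with DESeq2, and no call of the 3 held in more than 1 of the 6 fits without a further library. NDUFA4, counted with complex IV in mammals, and NDUFS6 had -0.15 and -0.05 and were not called (edgeR adjusted p = 0.298 and 0.672).

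No assembly factor was called within replicates 2 to 4. ATP5SL and NDUFAF6 had positive log2 fold changes of 0.29 ± 0.10 and 0.37 ± 0.26 (edgeR adjusted p = 0.0502 and 0.294), and NDUFAF1, COX20 and COX17 had -0.15, -0.03 and -0.38 (edgeR adjusted p = 0.426, 0.882 and 0.0997). Their levels per kilobase were low, from 3.57 to 33.1 CPM in old and from 2.69 to 31.5 CPM in young brain. NDUFAF6 had 3.57 CPM in old and 2.69 CPM in young brain, the lowest level of the 30.

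**Figure D5:**
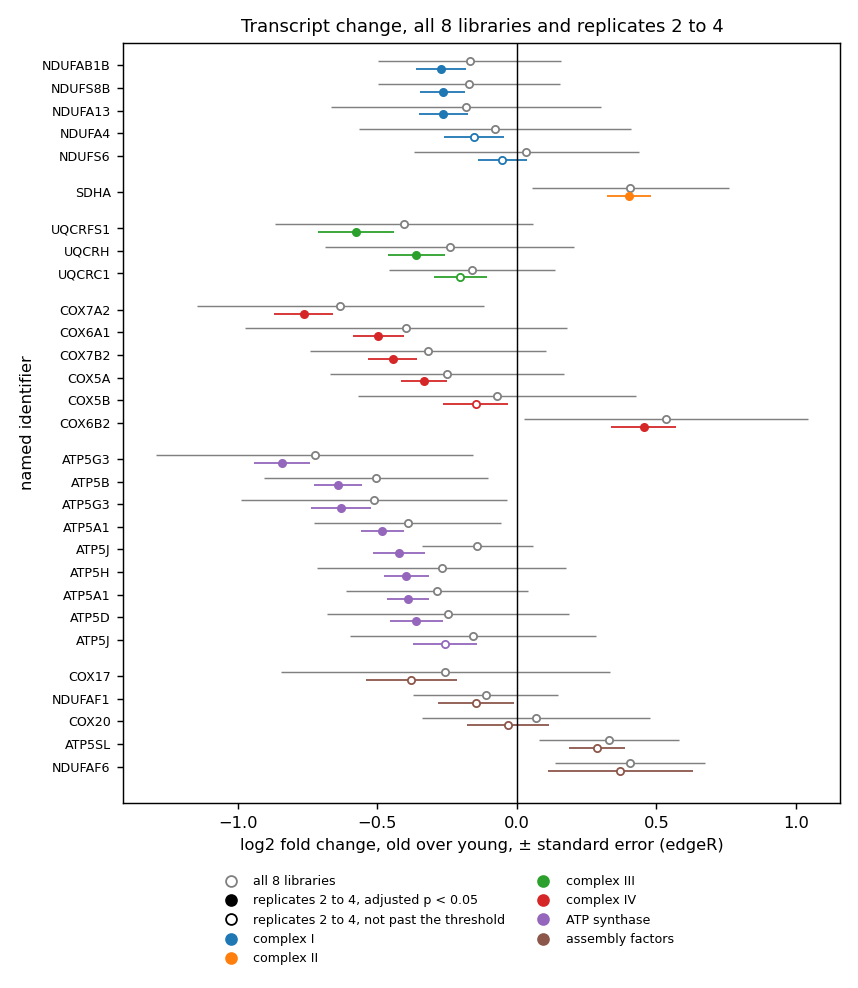
Log2 fold change of transcripts, old over young, with standard errors (edgeR), for 29 of the named identifiers grouped by complex. Grey open points use all 8 libraries. Coloured points use replicates 2 to 4, a split chosen after seeing the data, and are filled where the adjusted p is under 0.05. The 9 ATP synthase identifiers all lie below 0, 8 of them filled, and SDHA and COX6B2 are the filled points above 0.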

How the data were processed

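The footprint table that the authors deposited holds FPKM by gene symbol, from RSEM 1.3.1 on STAR alignments against NotFur1. For RNA, the authors deposited raw counts per gene (bcl2fastq 1.8.4, STAR 2.4.1d and featureCounts 1.4.6-p4, per the labels). The genome build, strand setting and treatment of shared reads of the RNA counts are not given in the sources used here. The deposited RPKM values of the RNA libraries gave only gene lengths. Implied lengths varied between libraries by a median of 17.6% with each library's own total and by 0.00171% with the 8 totals recycled down the columns, so the recycled totals were used.

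Low FPKM values are whole multiples of what 1 read is worth, and reads were recovered within 0.02 of a read (wider for larger counts) for 6410 of 6472 symbols above 0 (99.0%). Each symbol was given the smallest whole reads that fit its values, so that a symbol above 0 in 1 library (21 members) was taken as 1 read. This can understate reads, also those of symbols above 0 in more libraries. BX296557.7 took 87.5% of TPM on average. Shares are of recovered reads.

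Footprints were tested with limma 3.58.1 (trend) on log2(TPM + 1) where the mean reached 1 TPM, and RNA with edgeR 4.0.16 (TMM, robust quasi-likelihood test), both Benjamini-Hochberg adjusted over all genes tested and called under 0.05. DESeq2 1.42.0 and the other alternatives are given under the closing section. Scripts were tested on simulated data. The members and lists were chosen with earlier results of these data known. Members named singly had at least 5 recovered reads, were above 0 in at least 4 libraries, were at 0 at 1 age and above 0 in at least 3 libraries of the other, or had 1 of the 2 lowest limma p of their complex in a direction. Others are named as examples, and every RNA identifier was to be named. A gene that the rule includes is counted in totals and is otherwise not reported here. Of the RNA identifiers, 2 whose fish symbol and human orthologue disagreed were left out.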

Additional observations from a re-analysis of the deposited data

Results flagged for a closer look

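A library was singled out where its gap to the nearest other library of its age exceeded Dixon's critical share of the range of the 4 libraries, which chance gives in about 1 in 20 groups. Among footprint shares this held for complex I, highest in old replicate 4 (0.374%), and for complex II, highest in young replicate 1 (0.0463%), where the other young libraries were at 0. Among members it held for the only young library above 0 of SDHA (22.8 FPKM, replicate 1), UQCRFS1(2of2) (159.8 FPKM, replicate 2), ATP5D (74.6 FPKM, replicate 1) and ATP5H (245 FPKM, replicate 3), each a value of 1 read. Where only 1 library is above 0, the gap equals the whole range. Such groups, complex II in young brain among them, are always singled out, and the rate above does not apply to them.

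In RNA, replicate 1 was singled out as the lowest library. In old brain this held for the summed level of the 30 identifiers (2332 CPM) and for 9 identifiers. These were COX7A2 (35.7 CPM), NDUFS8B (31.7 CPM), COX7B2 (69.0 CPM), ATP5H (77.2 CPM), NDUFS6 (43.8 CPM), ATP5B (300.4 CPM), ATP5A1 (Nfu_g_1_009250, 242 CPM), ATP5D (59.5 CPM) and NDUFA13 (32.8 CPM). In young brain it held for 3, COX17 (4.24 CPM), COX20 (5.02 CPM) and UQCRFS1 (9.20 CPM).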

How the results depend on the processing

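The count of footprint calls among the members was 0 under all alternatives, and over all genes it was 1 with edgeR on recovered reads. The median difference of the members ranged from 0.47 (pseudocount 10) to 2.32 (3 most abundant symbols left out), with the median of all genes at 0.29 and 1.89 there. As a share of TPM without those symbols, the difference between old and young was 0.370 points for complex I and 0.732 for all members, and with members of at least 2 reads it was 0 for assembly factors. ATP5A1(1of2) turned to 0.61 with edgeR on recovered reads. ATP5B turned to 0.71 with a pseudocount of 0.1, to 1.28 without the 3 symbols and to 0.15 with FPKM as deposited. Leaving out each library gave -1.49 to 0.82 for ATP5B and -1.20 to 1.10 for COX6A1.

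For RNA, calls over all genes were 52 in the main test, 758 with DESeq2, 5298 in replicates 2 to 4, and 0 to 584 when each library was left out, with 0 without old replicate 2 or 4 or young replicate 2, 3 or 4. Members called were 0 and became 19 in replicates 2 to 4. Same-numbered libraries deviated together with correlations of 0.800, 0.482, 0.0346 and 0.565, and not every library correlated best with its own number, so the numbers were not taken as a pairing. With the number as a replicate block edgeR called 2764 genes (16.5% of those tested) and 5 of 30 members, 4 lower and 1 higher. In footprints these correlations ranged from -0.00 to 0.03, and the block called 0. The split into replicates 2 to 4 and the alternatives within it were chosen after seeing the data. Within it, 21 members were called with upper quartile normalization and 16 with DESeq2. When each library was left out, 12 to 18 members and 2139 to 5197 genes were called. Leaving out replicate 4 of both ages from the footprint shares was also chosen after seeing the data. NDUFS6 turned to -0.11 (upper quartile), -0.050 (no filter), -0.017 (DESeq2) and -0.052 (replicates 2 to 4). COX20 turned to -0.082, -0.022 and -0.032 with upper quartile, no filter and replicates 2 to 4. Leaving out each library gave ranges that crossed 0 for NDUFA4 (-0.34 to 0.13), COX20 (-0.17 to 0.22), NDUFA13 (-0.45 to 0.018), NDUFS6 (-0.20 to 0.20), NDUFAF1 (-0.25 to 0.0041), COX5B (-0.34 to 0.16) and ATP5J (Nfu_g_1_008671, -0.42 to 0.057). The cause of these turns was not tested. In young replicate 4, with 329 recovered reads, a count of 0 allows a share of up to 0.912%.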
